A study of Mus musculus with 5 samples.

Results

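The genes described here are those of the MHC class II pathway that the files list under the symbols H2-Aa, H2-Ab1, H2-Eb1, H2-DMa, H2-DMb1, Cd74 and Ciita. They were taken by symbol alone and are 7 of the 32285 features in the T cell libraries and 7 of the 54987 features in the whole-tumor libraries. All 7 symbols were found in all 5 libraries.

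Single-cell RNA counts came from tumors that 4T1-Thy1.1 cells, a murine triple negative breast cancer line referred to as 4T1, formed in the mammary fat pads of 12-week-old BALB/c animals. Mice received doxorubicin (DOX, an anthracycline) in 3 intravenous doses of 5 mg/kg, 3 days apart, or saline, and DOX treated tumors were binned as sensitive, where growth was inhibited, or resistant, where it was not. A sensitive and a resistant library of tumor T cells, each pooled from 3 tumors, and a control, a sensitive and a resistant library of whole tumor were made, so every group is 1 library and no spread between animals can be given. The T cell libraries were enriched by magnetic depletion of other immune cells and of Thy1.1+ cancer cells. The whole-tumor library labelled resistant has a source field that names a sensitive tumor, and it is called by its label here, as are the other whole-tumor libraries. The depletion cocktail for mouse T cells holds, as background, an antibody to MHC class II itself, so dendritic cells, macrophages and other cells in the T cell libraries are those that the depletion left.

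MHC class II molecules carry peptides from ingested protein to the surface of antigen-presenting cells, where CD4+ T cells read them. H2-Aa and H2-Ab1 encode the α and β chains of I-A, and H2-Eb1 encodes the β chain of I-E. Cd74 is the invariant chain that fills the groove of a newly made molecule, H2-DMa and H2-DMb1 encode the H2-DM dimer that helps to exchange its remnant for peptide, and Ciita is the transactivator that switches class II genes on in dendritic cells, macrophages and B cells and, under interferon gamma, in many other cell types.

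Class II promoters are known for an X box, bound by the RFX complex, followed by a Y box, bound by NF-Y, and CIITA is recruited to these bound factors rather than to DNA. Promoter sequences were read from RefSeq for GRCm38.p6, where 4 of the 7 genes matched, and were searched on both strands for GNAAC, the core of the X box, followed 20 to 40 bases later by ATTGG, the core of the Y box. The 150 bases before the start are shown for H2-Aa and H2-Eb1, because a chain of I-A and a chain of I-E share this arrangement, with the GNAAC match and then the ATTGG match in capitals. The H2-Aa stretch is chr17:34287824-34287973, read on the minus strand, and the H2-Eb1 stretch is chr17:34305717-34305866, read on the plus strand.
H2-Aa: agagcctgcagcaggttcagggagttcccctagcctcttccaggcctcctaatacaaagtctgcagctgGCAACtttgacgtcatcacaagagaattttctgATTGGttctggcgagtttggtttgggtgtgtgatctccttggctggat
H2-Eb1: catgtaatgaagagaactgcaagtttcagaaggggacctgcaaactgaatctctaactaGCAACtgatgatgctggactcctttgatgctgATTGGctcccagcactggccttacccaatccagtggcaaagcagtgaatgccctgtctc

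The ATTGG match begins 48 bases before the start of H2-Aa and 59 bases before that of H2-Eb1, and the first bases of both matches are 33 and 32 bases apart. The H2-DMb1 window holds the same pair, 33 bases apart, with ATTGG 61 bases before its start. Neither of the 2 windows listed for H2-DMa holds the pair, but both lie inside the annotated gene, at chr17:34122582-34122881 and chr17:34125268-34125567. No window at the annotated start of H2-DMa was listed, so whether the pair stands there was not tested. ATTGG alone was in 37.4% of the 32851 promoters of 300 bases, and the pair was in 3.51% of them. These letters were chosen after the sequences had been seen, and a match is a description of the sequence only.

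In the GRCm38 annotation 5 of the 7 genes lie on chromosome 17, all protein coding. H2-DMa (ENSMUSG00000037649) spans chr17:34119541-34139101, H2-DMb1 (ENSMUSG00000079547) chr17:34153072-34160230, H2-Ab1 (ENSMUSG00000073421) chr17:34257689-34269419 and H2-Eb1 (ENSMUSG00000060586) chr17:34305867-34316674, all on the plus strand. H2-Aa (ENSMUSG00000036594) spans chr17:34282744-34287823 on the minus strand. Cd74 (ENSMUSG00000024610) lies at chr18:60803848-60812652 and Ciita (ENSMUSG00000022504) at chr16:10480059-10528418, both on the plus strand.

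Cells were placed in gates by the number of marker genes with a UMI (a unique molecular identifier, which counts 1 captured RNA molecule), from 13 lists of 6 markers that hold none of the 7 class II genes. A T cell library cell needed 3 markers of a list and more than of any other list, and a whole-tumor cell needed 2. Levels are a gene's UMIs per 1000000 UMIs of its gate (CPM), with exact Poisson 95% intervals, and ratios carry exact 95% intervals from the counts. Both cover counting error only and say nothing of the spread between tumors. The reads are 3′ tags, so a gene is compared with itself across gates and libraries, not with another gene. Where 2 values of a gate stand together, that of the sensitive T cell library comes first.

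The T cell libraries held 31690845 UMIs in 3949 barcodes (sensitive) and 35908799 UMIs in 6116 barcodes (resistant), of which 3448 and 3091 cells were kept, and the whole-tumor libraries held 537293 to 1731940 UMIs in 275 to 501 barcodes. The sensitive and resistant T cell libraries shared 31 barcodes, 18 of them among kept cells, and other pairs of libraries shared at most 4. The T cell gate held 1923 and 1812 of the kept cells, so these libraries were not T cells alone. All 6 markers of the gate's list were detected in the macrophage, monocyte, cancer cell, fibroblast and T cell gates of both T cell libraries, and 4 of 6 in the NK cell gate. Cells were chosen by these markers, so their presence does not test what the gates are.

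Class II RNA was concentrated in dendritic cells and macrophages in both T cell libraries. The 7 genes together took 53164 CPM in the 28 dendritic cells of the sensitive library and 55553 CPM in the 48 of the resistant library. In macrophages they took 37749 CPM over 162 cells and 41714 CPM over 125 cells. Monocytes were far lower, at 5744 CPM in 22 cells and 5081 CPM in 34 cells.

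Cells of the cancer cell gate, which carry the epithelial markers Krt8, Krt18, Krt7, Epcam, Cldn4 and Cldn7, took 5636 CPM over 100 sensitive cells and 3361 CPM over 129 resistant cells. The neutrophil gate took 1775 and 2565 CPM, the T cell gate 491 CPM over 1923 cells and 552 CPM over 1812 cells, the fibroblast gate 219 CPM over 789 cells and 109 CPM over 589 cells, and the NK cell gate 139 CPM in each library. The order of these summed levels from dendritic cells through macrophages and monocytes to cancer cells, neutrophils and T cells was the same in both libraries, but that of monocytes and cancer cells was not firm. Without the cell with most class II UMIs sensitive monocytes were at 4030 CPM, and with 1 more marker asked for resistant monocytes were at 2574 CPM, both below the cancer cells. Without cells that also reached a second gate the T cell gate was at 175 and 171 CPM and the resistant fibroblast gate at 62.2 CPM. Counting error did not separate every pair of neighbours: monocytes (5423 to 6080 CPM) and cancer cells (5542 to 5730 CPM) overlapped in the sensitive library, and in the resistant library NK cells (92.5 to 201 CPM) and fibroblasts (102 to 115 CPM) overlapped. Cells that reached no gate, 259 and 163 in number, took 6021 and 6496 CPM.

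**Figure D1:**
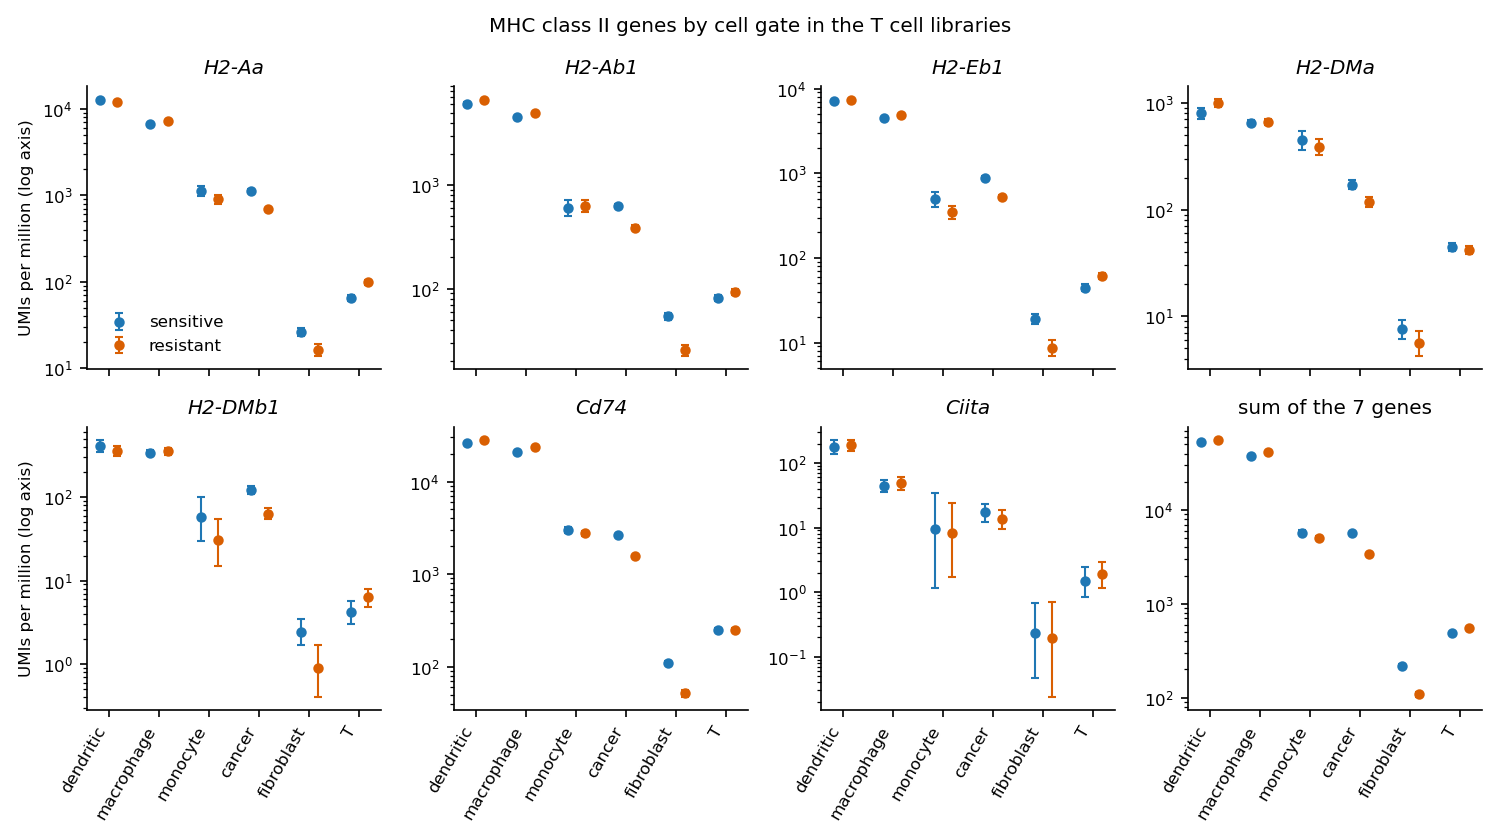
Level in CPM (log axis) of each of the 7 class II genes and of their sum in 6 gates of the sensitive and the resistant T cell library, with exact Poisson 95% intervals from the counts. The sum is at 53164 and 55553 CPM in dendritic cells, at 37749 and 41714 CPM in macrophages, between 3361 and 5744 CPM in monocytes and cancer cells, and at or below 552 CPM in T cells and fibroblasts.

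Single cells showed how evenly each gate carried these genes. The median dendritic cell had summed levels of 53362 and 52864 CPM, and the median macrophage 31965 and 37979 CPM. The median cancer cell had 4555 and 2900 CPM, above the median monocyte at 1051 and 877 CPM, and only 5 of 100 and 3 of 129 cancer cells had no class II UMI. The median T cell and the median fibroblast had none, with 67.2% and 57.2% of T cells and 65.5% and 61.3% of fibroblasts at 0. Most of the class II RNA of these gates was therefore in few cells, the 10% of T cells with most class II UMIs holding 90.4% and 87.8% of it and the same share of fibroblasts 90.5% and 81.3%, against 32.4% and 29.3% for cancer cells. In monocytes 1 cell of each library held 33.6% and 18.7% of the UMIs, and in neutrophils 1 cell held 50.8% and 41.6%.

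**Figure D2:**
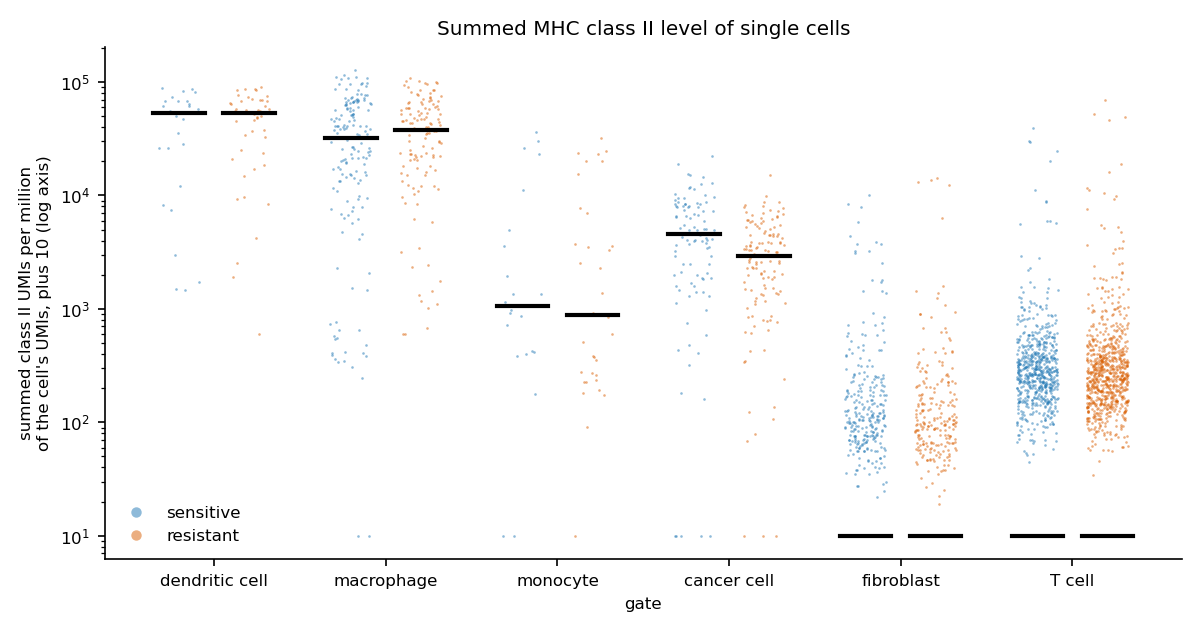
Summed level of the 7 class II genes in single cells, as CPM of the cell's own UMIs plus 10 (log axis), by gate and T cell library. Dendritic cells and macrophages form a high group with medians between 31965 and 53362 CPM, cancer cells a middle group with medians of 4555 and 2900 CPM, and most T cells and fibroblasts sit at the bottom of the axis, at 0 UMIs.

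A cell was counted as class II positive when it had a UMI of at least 3 of H2-Aa, H2-Ab1, H2-Eb1 and Cd74. After each cell had been thinned to 1000 UMIs, so that deeper cells had no advantage, 82.1% (95% Clopper-Pearson interval 63.1 to 93.9) of sensitive and 85.4% (72.2 to 93.9) of resistant dendritic cells were positive, as were 78.4% (71.3 to 84.5) and 84.8% (77.3 to 90.6) of macrophages. Cancer cells were positive in 38.0% (28.5 to 48.3) and 27.3% (19.8 to 35.9) of cases, and without thinning in 88.0% and 83.7%, at a median of 21192 and 22493 UMIs per cell. Monocytes were positive in 18.2% (5.19 to 40.3) and 23.5% (10.7 to 41.2), with intervals that overlapped those of cancer cells. The share of positive T cells was 0.523% (0.251 to 0.960) and 0.940% (0.549 to 1.50), that of fibroblasts 0.637% and 0.680%. Neutrophils, whose class II UMIs were in few cells, were positive in 1.57% (0.191 to 5.57) and 3.09% (1.01 to 7.06). The shares in T cells and fibroblasts were not above these and are not read as expression. Their unthinned shares were 1.66% and 3.20% in T cells, 4.56% and 4.92% in fibroblasts and 1.57% and 4.32% in neutrophils, at median depths of 4003 and 4564, 13537 and 13801, and 2299 and 2599 UMIs.

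The I-A and I-E chains were highest in dendritic cells and macrophages gene by gene, while the order of monocytes and cancer cells differed between genes and libraries. H2-Aa was at 12693 and 12143 CPM in sensitive and resistant dendritic cells, 6768 and 7320 CPM in macrophages, 1128 and 895 CPM in monocytes and 1135 and 689 CPM in cancer cells. H2-Ab1 was at 6072 and 6572, 4554 and 4967, 602 and 624, and 630 and 388 CPM in the same gates. H2-Eb1 was at 7118 and 7331, 4524 and 4912, 492 and 348, and 881 and 519 CPM. For each of these chains the dendritic cell level was the highest and the macrophage level the second, in both libraries, with no overlap of counting intervals.

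Cd74, the invariant chain, was found in 28 of 28 and 48 of 48 dendritic cells, in 158 of 162 and 125 of 125 macrophages, and in 94 of 100 and 121 of 129 cancer cells. Its level was 25888 and 27951 CPM in dendritic cells, 20861 and 23445 CPM in macrophages, 3007 and 2786 CPM in monocytes and 2679 and 1569 CPM in cancer cells. Even the T cell gate had 250 CPM of Cd74 in each library, and the fibroblast gate 110 and 51.7 CPM.

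The peptide exchange genes were spread differently. H2-DMa stood at 800 and 1005 CPM in dendritic cells and 655 and 668 CPM in macrophages, and monocytes had 448 and 389 CPM, which is closer to macrophages than for any chain of I-A or I-E. H2-DMb1 was at 416 and 361 CPM in dendritic cells and 342 and 354 CPM in macrophages but only 57.8 and 30.4 CPM in monocytes. H2-DMb1 UMIs per 1000 H2-DMa UMIs were accordingly 129 (64.4 to 236) and 78.0 (38.1 to 144) in monocytes, against 523 (474 to 575) and 530 (477 to 589) in macrophages. H2-DMb1 has a near copy, H2-DMb2, and how reads were divided between them is uncertain.

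Ciita was scarce, as transcripts of regulators often are, and its 226 and 279 UMIs fell mainly where class II was high. It was at 177 (136 to 228) and 190 (155 to 230) CPM in dendritic cells, 44.7 (35.6 to 55.3) and 48.7 (38.2 to 61.1) CPM in macrophages and 17.1 (12.3 to 23.1) and 13.5 (9.63 to 18.5) CPM in cancer cells. T cells had 15 and 20 UMIs, 1.50 and 1.91 CPM, and fibroblasts 3 and 2 UMIs, 0.230 and 0.197 CPM. A Ciita UMI was present in 50.0% and 58.3% of dendritic cells, 19.8% and 36.8% of macrophages and 24.0% and 25.6% of cancer cells, but in 0.572% and 0.883% of T cells and 0.253% and 0.340% of fibroblasts, so the share in cancer cells was above that in fibroblasts, whose depth per cell was of the same order. Cells with a Ciita UMI had more class II RNA: 61406 against 28583 CPM in sensitive macrophages, 53014 against 33691 CPM in resistant macrophages, 7061 against 5078 CPM in sensitive cancer cells and 4034 against 3037 CPM in resistant cancer cells. Cells with a Ciita UMI were also deeper, with medians of 30632 and 28032 UMIs against 19978 and 18664 in cancer cells, and the part of depth in this difference was not tested.

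Within the dendritic cell gate class II RNA was lower in Ccr7+ cells than in type 1 cells in both libraries. Conventional type 1 dendritic cells (cDC1, which cross-present antigen and were chosen by Xcr1, Clec9a, Wdfy4, Flt3, Cadm1 and Batf3) numbered 17 and 30 and took 59516 and 60586 CPM of summed class II RNA. Ccr7+ dendritic cells, which in textbooks are matured cells that migrate to lymph nodes, were chosen by Ccr7, Fscn1, Cacnb3, Ccl22, Il4i1 and Nudt17, numbered 6 and 10 and took 14531 and 11060 CPM. Single cDC1 ranged from 7395 through a median of 57388 to 82845 CPM (sensitive) and from 17180 through 55282 to 89847 CPM (resistant). Single Ccr7+ cells ranged from 1475 through 5607 to 26048 CPM and from 592 through 8816 to 36646 CPM. The ranges overlapped in both libraries, and each Ccr7+ median was below the lowest cDC1 of its own library. With 3 and 5 cells, conventional type 2 dendritic cells (cDC2) took 36578 and 63382 CPM.

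The difference was uneven across the genes. H2-Ab1 was at 7153 and 7079 CPM in cDC1 and at 243 and 506 CPM in Ccr7+ cells, which gave ratios of 29.4 (15.9 to 61.4) and 14.0 (9.88 to 20.5). H2-Aa differed less, with ratios of 2.95 (2.56 to 3.43) and 5.63 (4.79 to 6.68), and Cd74 likewise, with 3.43 (3.07 to 3.83) and 4.16 (3.79 to 4.58). The I-E chain H2-Eb1 lay between, at 6.96 (5.25 to 9.45) and 9.65 (7.36 to 12.9). H2-DMa had 1 and 4 UMIs in Ccr7+ cells, which gave ratios of 34.3 (6.08 to 1360) and 17.5 (6.78 to 64.5).

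Neither H2-DMb1 nor Ciita had a UMI in Ccr7+ cells of either library. H2-DMb1, with 119 and 171 UMIs in cDC1, was at least 7.08-fold and 9.17-fold higher there, taking 3 UMIs over the Ccr7+ cells of a library as the floor, and the exact interval of the ratio, which also counts the error in cDC1 and is wider, began at 5.67 and 7.37. Ciita, with 43 and 82 UMIs, was at least 2.56-fold and 4.40-fold higher over the same floor, with intervals that began at 1.99 and 3.49. Ciita was detected in 11 of 17 and 21 of 30 cDC1 and in 0 of 6 and 0 of 10 Ccr7+ cells, whereas Cd74 was detected in every cell of both subsets. The cDC1 were deeper, with medians of 13034 and 11602 UMIs per cell against 5829 and 5781, and the gate names rest on 6 and 10 cells.

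**Figure D3:**
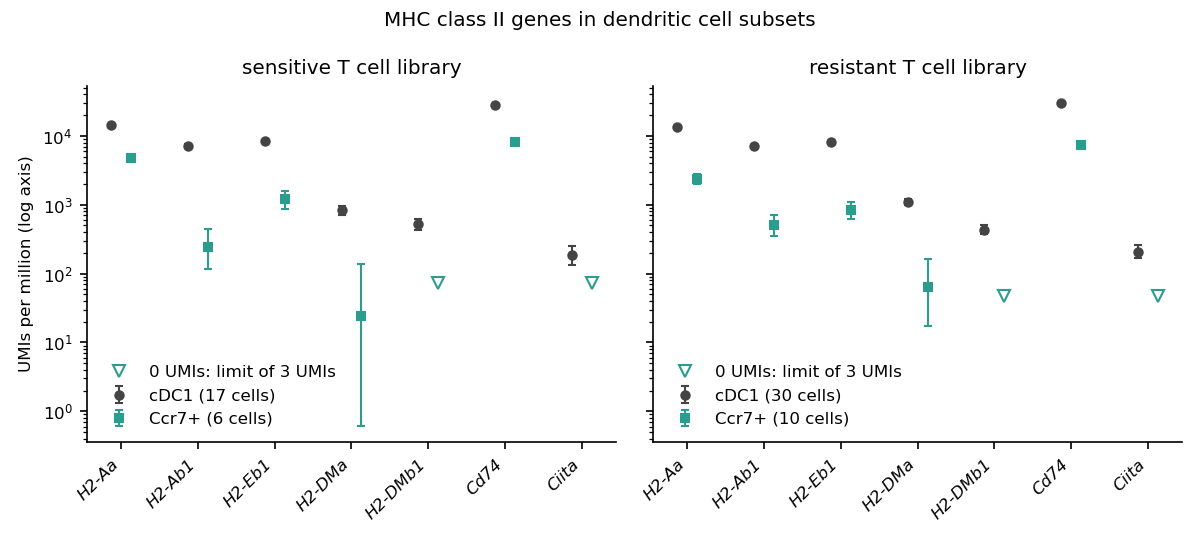
Level in CPM (log axis) of the 7 class II genes in cDC1 and Ccr7+ dendritic cells of the sensitive (left) and resistant (right) T cell library, with exact Poisson 95% intervals from the counts. H2-Ab1 is at 7153 and 7079 CPM in cDC1 and at 243 and 506 CPM in Ccr7+ cells, Cd74 at 28284 and 30376 against 8251 and 7294 CPM, and Ciita and H2-DMb1 have no UMI in Ccr7+ cells.

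The sensitive and resistant T cell libraries were then compared gate by gate, to ask whether class II expression differed between tumors that responded to DOX and tumors that did not. In dendritic cells the summed level was 0.957 times (0.940 to 0.975) that of the resistant library. None of the 7 genes differed 2-fold in either direction, where 0.862% of the 1044 genes with at least 100 UMIs were 2-fold or more higher and 1.05% lower. The ratios ran from 0.796 for H2-DMa to 1.15 for H2-DMb1. H2-DMa, the lowest of them, had 800 and 1005 CPM. Without cells that also reached a second gate the summed ratio was 1.05.

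In macrophages all 7 ratios were below 1, from 0.890 for Cd74 to 0.981 for H2-DMa, and the sum stood at 0.905 times (0.895 to 0.915) the resistant level. The intervals of H2-Aa (0.901 to 0.948), H2-Ab1 (0.889 to 0.946), H2-Eb1 (0.893 to 0.950) and Cd74 (0.877 to 0.903) lay below 1, while those of H2-DMa, H2-DMb1 and Ciita held 1. None differed 2-fold, against 2.19% of 3782 genes higher and 0.476% lower, and the median ratio of all these genes was 1.01. The 7 class II genes ranked above 24.6% to 43.4% of these genes, so ratios this low were common in the gate.

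In monocytes 5 of the 7 genes reached 100 UMIs, with ratios from 0.965 for H2-Ab1 to 1.41 for H2-Eb1, and none was 2-fold higher or lower, against 3.17% and 2.8% of 820 genes. The summed ratio was 1.13 (1.05 to 1.22). Without the 1 cell with most class II UMIs in each library it was 0.915, and with 1 more marker asked for it was 2.23. The 6 macrophage markers, which monocytes share in part, took 1051 and 85.6 CPM in the monocyte gates, and their part in the ratio was not tested.

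Cancer cells differed between the libraries in the same direction for every measured gene. The summed level was 1.68 times (1.63 to 1.72) higher in the sensitive library, and the 6 genes with at least 100 UMIs all had intervals above 1: H2-Aa 1.65 (1.56 to 1.75), H2-Ab1 1.62 (1.50 to 1.76), H2-Eb1 1.70 (1.59 to 1.81), H2-DMa 1.44 (1.24 to 1.66), H2-DMb1 1.93 (1.60 to 2.33) and Cd74 1.71 (1.64 to 1.77). None reached 2-fold, where 0.75% of 5598 genes were 2-fold or more higher and 0.482% lower. The median ratio of these 5598 genes was 1.06, and the 6 class II genes were above 93.5% to 99.0% of them. Ciita, with 42 and 39 UMIs, had a ratio of 1.26 (0.797 to 2.01), so a difference was not detectable at this depth.

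Because dendritic cells and macrophages carry so much class II RNA, their other markers were counted in the cancer cell gate. Of 17 markers of macrophages, monocytes, dendritic cells and B cells, a list chosen after the data had been seen and a subset of the gate lists, 5 had any UMI in the cancer cells of each library, 13 and 29 UMIs in all (5.29 and 10.1 CPM), and Flt3, Xcr1, Clec9a, Cd209a, Siglech, Csf1r, Adgre1, Cd79a and Ms4a1 were at 0 in both. Other genes of the gate lists were present in these cells. The Ccr7+ list had 813 and 664 UMIs, with Fscn1 in 86.0% and 79.8% of cells, the monocyte list 117 and 173 UMIs, with F13a1 in 27.0% and 37.2%, and the cDC1 list 18 and 23 UMIs, of which Batf3 was found in more cells than the others. UMIs of the complement genes C1qa, C1qb and C1qc, markers of macrophages, came to 1.67 (0.834 to 2.99) and 5.75 (3.75 to 8.44) per 1000 Cd74 UMIs in cancer cells, against 678 and 532 in macrophages and 390 and 373 in T cells. Dendritic cells were lower still, at 0.225 and 0.582, so a low value was not particular to cancer cells. Cancer cells without a UMI of any of the 17 markers, 88 and 116 in number, kept 5453 and 3341 CPM of class II RNA, a ratio of 1.63. Cancer cells without a UMI of Ptprc (the leukocyte antigen CD45), 98 and 125 in number, had 5520 and 3378 CPM.

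The proportions among the class II genes also differed between cancer cells and macrophages. H2-Eb1 UMIs per 1000 H2-Ab1 UMIs were 1398 (1309 to 1493) and 1338 (1238 to 1447) in cancer cells, against 993 and 989 in macrophages. H2-Aa UMIs per 1000 H2-Ab1 UMIs were 1801 and 1775 in cancer cells, 1486 and 1474 in macrophages and 2091 and 1848 in dendritic cells. Ciita UMIs per 1000 Cd74 UMIs were 6.38 (4.60 to 8.64) and 8.63 (6.13 to 11.8) in cancer cells and 6.85 (5.24 to 8.81) and 6.79 (5.55 to 8.23) in dendritic cells, both above the 2.14 (1.71 to 2.65) and 2.08 (1.63 to 2.61) of macrophages. The T cell gate, on 15 and 20 Ciita UMIs, was above macrophages too, at 5.99 (3.35 to 9.90) and 7.63 (4.65 to 11.8).

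**Figure D4:**
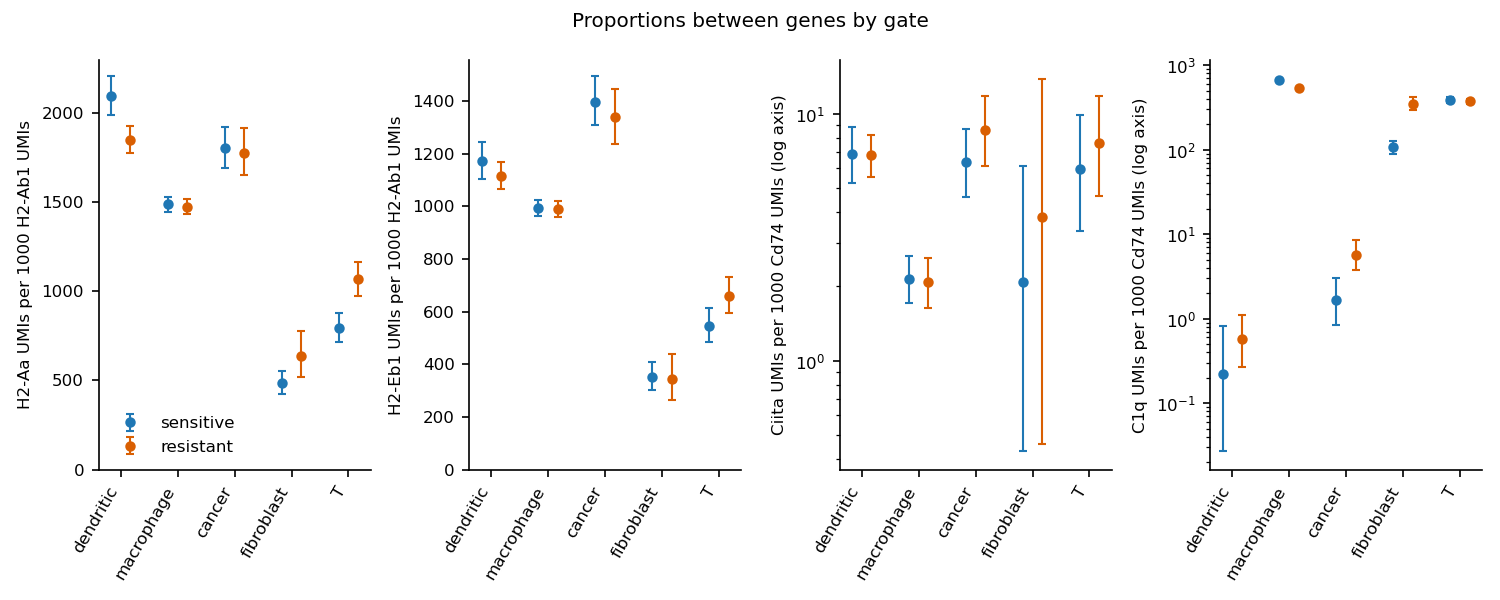
UMIs of 1 gene per 1000 UMIs of another by gate in both T cell libraries, with exact 95% intervals from the counts. C1q (the 3 C1q genes summed) per 1000 Cd74 UMIs is at 678 and 532 in macrophages, at 1.67 and 5.75 in cancer cells and at 0.225 and 0.582 in dendritic cells. Ciita per 1000 Cd74 UMIs is higher in cancer cells, dendritic cells and T cells than in macrophages.

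In fibroblasts 5 of the 7 genes were measured, and H2-Ab1 (54.0 and 25.3 CPM, ratio 2.13), H2-Eb1 (19.0 and 8.67 CPM, ratio 2.19) and Cd74 (110 and 51.7 CPM, ratio 2.13) were 2-fold or more higher in the sensitive library, against 2.29% of 9920 genes higher and 0.675% lower. H2-Aa had a ratio of 1.62 (1.34 to 1.96) and H2-DMa 1.35 (0.965 to 1.90). The sum was at 2.02 times (1.88 to 2.17), yet 36 of 789 and 29 of 589 fibroblasts were class II positive and held 80.8% and 68.5% of the UMIs. Of these, 14 and 16 (38.9% and 55.2%) carried a UMI of the 17 antigen-presenting cell markers, against 11.6% and 17.1% of the other fibroblasts. The positive cells were deeper, with medians of 24436 and 19968 UMIs against 13275 and 13656. In the whole gate C1q UMIs per 1000 Cd74 UMIs were 107 and 352. The mean over single fibroblasts gave a ratio of 0.824 in place of 2.02, and keeping the barcodes scored as doublets gave 1.11. Without fibroblasts that carried any of the 17 markers the ratio was 3.40.

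A subset of fibroblasts was chosen by Acta2 and Tagln, genes of the contractile machinery. It was at 602 CPM (565 to 641) over 42 sensitive cells and 135 CPM (106 to 169) over 16 resistant cells. Another subset was chosen by Pi16, which marks universal fibroblasts of the adventitia. These Pi16+ cells were at 94.1 CPM (87.8 to 101) over 637 cells and 110 CPM (103 to 118) over 508 cells. Some fibroblasts of the gate were in neither subset. The Pi16+ cells, which made up most of the gate, thus did not share the higher level in the sensitive library.

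In the T cell gate the 6 measured genes had ratios from 0.653 for H2-Aa to 1.07 for H2-DMa, and none was 2-fold higher or lower, against 2.7% and 0.764% of 9035 genes, whose median ratio was 1.10. H2-Aa was at 64.3 and 98.5 CPM, H2-Ab1 at 81.3 and 92.5 CPM, H2-Eb1 at 44.4 and 61.0 CPM and Cd74 at 250 and 250 CPM. The summed ratio was 0.888 (0.855 to 0.923).

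A few T cell gate cells set these levels. The 32 sensitive and 58 resistant cells that were class II positive held 80.5% and 79.7% of the class II UMIs of the gate. Of them 18 and 35 (56.25% and 60.3%) carried a UMI of the 17 antigen-presenting cell markers, and 12 and 18 (37.5% and 31.0%) also reached the marker minimum of a second gate. In the other T cells these shares were 12.2% and 13.3%, and 1.64% and 1.14%. The class II positive cells were deeper, with a median of 11276 and 6591 UMIs, against 3980 and 4526 in the other T cells. T cells without any of the 17 markers had 160 and 157 CPM of summed class II RNA, a ratio of 1.02, so the lower level in the sensitive library was not seen in them. The ratio was also 1.02 without T cells of a second gate.

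H2-DMa, which the split by class II positive cells did not use, was at 38.6 (34.7 to 42.7) and 34.2 (30.7 to 38.1) CPM in the T cells that were not class II positive and at 44.6 and 41.9 CPM in the whole T cell gate. It was detected in 15.9% and 16.1% of those cells.

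In the neutrophil gate 4 genes were measured and all 4 were lower in the sensitive library, with ratios from 0.519 for H2-Eb1 to 0.783 for H2-Aa and none 2-fold, against 0.923% of 1083 genes higher and 3.79% lower. Here the single cell with most class II UMIs held 50.8% and 41.6% of them, and the summed ratio went from 0.692 to 1.23 when putative doublets were kept.

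**Figure D5:**
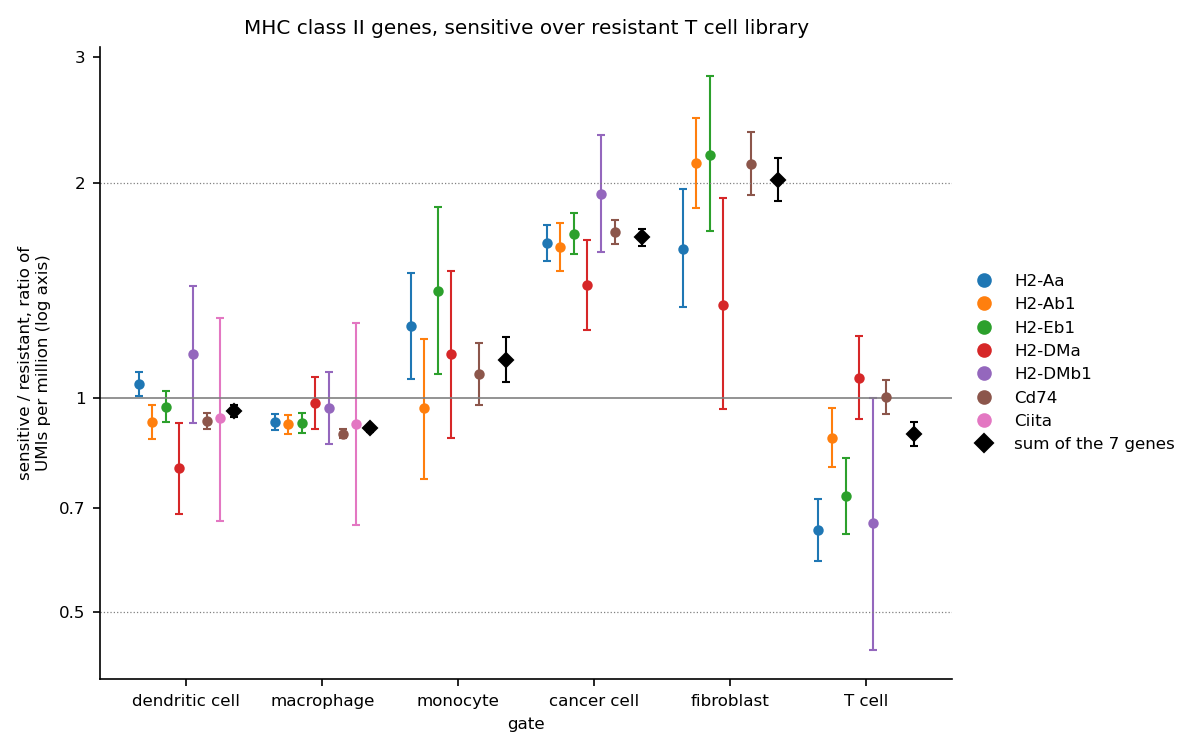
Ratio of the level in the sensitive to that in the resistant T cell library (log axis) for each class II gene and their sum in 6 gates, with exact 95% intervals from the counts. Cancer cells have all measured genes between 1.44 and 1.93, macrophages all between 0.890 and 0.981, and dendritic cells lie on both sides of 1.

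Of a list of 37 other genes of the pathway, 33 were among the features of the T cell libraries. In dendritic cells 10 of them reached 100 UMIs and none was 2-fold higher or lower, with a median ratio of 1.03 against 1.03 over all genes. The lysosomal protease Ctsb had a ratio of 1.49 (1.10 to 2.01) and the thiol reductase Ifi30 one of 1.17 (1.05 to 1.31). The transcription factors Irf8 (1.09, 0.989 to 1.21) and Spi1 (0.931, 0.755 to 1.15), the DM β chain gene H2-DMb2 (0.931, 0.779 to 1.11) and the protease Napsa (0.942, 0.728 to 1.21) had intervals that held 1. H2-Oa and H2-Ob, which encode the DM inhibitor H2-O, were found in dendritic cells at 69.8 and 101 CPM and at 20.4 and 32.5 CPM, and in macrophages at 2.66 and 3.29 CPM and at 0.532 and 1.97 CPM. H2-O RNA was therefore in the dendritic cells and near the counting floor in macrophages in both libraries.

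In macrophages 21 of the 37 were measured and none was 2-fold higher or lower, with a median ratio of 1.01. The protease genes Napsa (1.77, 1.19 to 2.69) and Ctsl (1.56, 1.49 to 1.64) had higher levels in the sensitive library. Cd83, which stabilizes class II at the surface, had a ratio of 0.684 (0.583 to 0.803) and the costimulatory ligand Cd86 0.767 (0.616 to 0.954). March1, a ubiquitin ligase that removes class II from the surface (1.23, 0.887 to 1.72), and the IL-10 receptor gene Il10ra (0.813, 0.658 to 1.00) had intervals that held 1.

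In cancer cells 15 were measured, 13 of them with ratios above 1, and the median was 1.25 against 1.06 over all genes. H2-DMb2 alone was 2-fold higher, against 0.75% of all genes, at 138 and 63.9 CPM (ratio 2.17, 1.81 to 2.61). The interferon gamma receptor genes Ifngr1 (1.75, 1.32 to 2.32) and Ifngr2 (1.82, 1.38 to 2.41) and the proteases Lgmn (1.45, 1.15 to 1.84) and Ctsl (1.39, 1.32 to 1.45) were also higher. Other parts of the presentation machinery were scarce in these cells: Cd80, Cd86 and Cd83 had 0 UMIs in both libraries, and Ctss had 6 and 16 UMIs (2.44 and 5.55 CPM), against 4561 CPM in sensitive macrophages. The costimulatory receptor Cd40 was present, with 43 and 46 UMIs (17.5 and 16.0 CPM, ratio 1.10, 0.706 to 1.70).

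In T cells 28 were measured and Ifngr2 alone was 2-fold higher (2.22, 1.46 to 3.44), 1 of 28 being near the 2.7% of all genes of that gate, with Cd83 at 1.77, Irf1 at 1.57, Icam1 at 1.56, Ifngr1 at 1.56 and Ctsl at 1.50. In fibroblasts 2 of 21 were 2-fold higher, against 2.29% of all genes, the transcription factors Irf8 (2.19, 1.63 to 2.96) and Irf1 (2.11, 1.90 to 2.35). In monocytes 2 of 11 were, against 3.17% of all genes, Lgmn (3.44, 2.83 to 4.18) and Ctsl (2.39, 2.13 to 2.69). The macrophage markers of the monocyte gates were higher in the same direction, at 1051 and 85.6 CPM, and their part in these ratios was not tested.

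Across the 16 groups of gate and T cell library with at least 10 cells, levels of the 7 genes moved together. Pearson's r of log2(CPM + 10) between members ran from 0.829 for H2-DMa with Cd74 to 0.995 for H2-Aa with H2-Eb1. Among 11195 genes with at least 200 UMIs, the 8 most like the mean of the members were H2-DMb2 (r = 0.98), Cd40 (0.94), Shtn1 (0.93), Amz1 (0.90), Ppfia4 (0.89), Rasa4 (0.88), Slc8b1 (0.88) and Zfp710 (0.87). The 16 points share libraries and differ in depth, so these values describe the pattern only. H2-DMb2, the nearest, was at 587 and 631 CPM in dendritic cells, 276 and 311 CPM in macrophages, 138 and 63.9 CPM in cancer cells and 5.90 and 5.82 CPM in T cells.

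The whole-tumor libraries, which had no depletion, held few cells outside the neutrophil gate and were not set against the T cell libraries. Their cancer cell gates held 33 control, 6 sensitive and 46 resistant cells, their macrophage gates 9, 6 and 34 cells, and the dendritic cell gate 2 control cells only. The T cell gate held 59 of 488 control, 2 of 269 sensitive and 13 of 263 resistant kept cells. The share was thus lowest in the library labelled sensitive and highest in the control. The paper, which called T cells by Ptprc and Cd3d, reported its highest share in sensitive tumors and its lowest in resistant ones. Whether the control, sensitive and resistant labels of these libraries are right was not tested. Summed class II RNA over all kept cells was at 899 CPM (854 to 947) in the control, 1521 CPM (1418 to 1629) in the sensitive library and 2078 CPM (2011 to 2148) in the resistant one, and 1 cell held 21.4%, 32.4% and 6.51% of these UMIs. By gate they took 57453 CPM in the control dendritic cells, where 1 of the 2 cells held 99.4% of the UMIs, 26748 CPM in its 4 B cells, 4642, 11652 and 3611 CPM in control, sensitive and resistant macrophages, where 1 cell held 58.5%, 44.3% and 26.0% of the UMIs, and 90.3, 163 and 138 CPM in control, sensitive and resistant neutrophils.

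In neutrophils, on 54, 59 and 43 class II UMIs, the summed ratio was 1.80 (1.22 to 2.66) for the sensitive library over the control, 1.53 (1.00 to 2.33) for the resistant library over the control and 1.18 (0.780 to 1.78) for sensitive over resistant. In T cells the resistant library stood at 8.98 times (3.68 to 26.4) the control, on 30 and 6 UMIs over 13 and 59 cells, but 1 resistant cell held 90.0% of them and without the top cell of each library the ratio was 1.52 (0.223 to 8.98).

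The cancer cell gates of the control and the resistant library had more class II UMIs. The sum was at 823 CPM (751 to 900) in the control and 2232 CPM (2136 to 2331) in the resistant one, 2.71 times (2.45 to 3.00) as high. The 4 measured genes were all 2-fold or more higher in the resistant library, at 2.78 (2.05 to 3.83) for H2-Aa, 2.72 (1.95 to 3.89) for H2-Ab1, 3.10 (2.10 to 4.73) for H2-Eb1 and 2.68 (2.37 to 3.04) for Cd74, against 2.78% of 1835 genes higher and 1.8% lower. H2-DMa had 17 and 54 UMIs (2.02, 1.15 to 3.72), H2-DMb1 16 and 69 UMIs (2.75, 1.58 to 5.07) and Ciita 1 and 10 UMIs.

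These cells were less clean than those of the T cell libraries and had not been scored for doublets. The neutrophil marker S100a8 had a UMI in all 33 control and in 93.5% of resistant cancer cells, and all 9 class II positive control cells and 16 of the 25 class II positive resistant cells also reached the marker minimum of a second gate, as did 14 of the 24 other control and 13 of the 21 other resistant cells. Of the 17 antigen-presenting cell markers 2 and 7 had a UMI, at 3.43 and 27.3 CPM. The part of these cells in the ratio was not tested beyond leaving them out, which gave 7.19, with a lower exact limit of 4.89, over 17 resistant and 10 control cells, with no class II positive control cell left. With DOX given to 1 library and not to the other, treatment, response and library cannot be told apart.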

How the data were processed

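UMI counts per gene and barcode were deposited by the authors as 10x matrices, made with Cell Ranger 6.0.0 (T cell libraries) and 3.0.1 (whole tumor) per the matrix headers, from 3′ kits, without normalization. Feature lists differ between the 2 sets, so no comparison crosses them.

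A cell was kept with 500 or more genes and a mitochondrial share of UMIs up to 10% in the T cell libraries, or 200 genes and 20% in whole tumor. In the T cell libraries the highest Scrublet scores in scanpy 1.11.5, 0.8% per 1000 barcodes, were removed as putative doublets, 112 sensitive and 159 resistant barcodes. The whole-tumor libraries were not scored for doublets. Mitochondrial features had 0 UMIs in whole tumor.

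Gates used 13 lists of 6 markers: T cell, NK cell, B cell, 4 dendritic cell lists (cDC1, cDC2, Ccr7+, pDC), macrophage, monocyte, neutrophil, fibroblast, cancer cell and endothelial cell. A T cell also needed a Cd3 UMI. The macrophage and monocyte lists formed a joint gate, split into macrophages, with at least 2 of C1qa, C1qb and C1qc, and monocytes, with fewer. The 4 dendritic cell lists formed a joint gate too. Ratios were taken in gates of at least 10 cells per library, for genes of at least 100 UMIs. With 1 library per group there is no test and no p-value. Intervals are exact Poisson, conditional binomial or Clopper-Pearson (scipy 1.17.1, Python 3.11.15) and cover counting error only. Code was tested on simulated data.

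Named genes are the 7 members, up to 6 of a 37-gene pathway list by size of log2 ratio in the dendritic, macrophage and T cell gates, and the 8 genes most like the members. Pathway genes named in other gates, and those named for their level, were chosen after their values were seen. Members and lists were chosen with earlier results of these data known. Reads of BALB/c mice were counted on a C57BL/6 reference, and what that does to polymorphic H2 genes was not tested. Alternatives were the marker minimum, cells of a second gate, filters, doublet removal, the mean over cells, median scaling, the top cell, leaving out Cd74, thinning, and, chosen after seeing the data, leaving out cells with antigen-presenting cell markers or Ptprc.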

Additional observations from a re-analysis of the deposited data

Results flagged for a closer look

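The ratio of summed class II RNA, sensitive over resistant T cell library, lay on opposite sides of 1 in different gates of the same libraries. It was 1.68 in cancer cells, 2.02 in fibroblasts and 1.13 in monocytes, and 0.957 in dendritic cells, 0.905 in macrophages and 0.888 in T cells. The difference between gates was not tested, since each group is 1 library. Leaving out the 1 cell with most class II UMIs in each library moved the monocyte ratio below 1, and leaving out cells of a second gate moved the dendritic cell and T cell ratios above 1. The fibroblast ratio was 0.824 as the mean over single cells, and the T cell ratio was 1.13 without cell filter and doublet removal. The cancer cell ratio stayed above 1 and the macrophage ratio below 1 under every alternative run, though without cell filter and doublet removal the macrophage ratio was 0.991 with an interval of 0.981 to 1.00 that held 1. At the reported values the macrophage sum ranked above 27.4% of the 3782 genes of its gate. The cancer cell sum ranked above 97.9% of 5598 genes.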

How the results depend on the processing

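No paired analysis was possible because each group is 1 library. Of the summed ratios under the alternatives, 64 lay inside the counting interval of the reported value, which is wide where UMIs are few, 32 lay outside it on the same side of 1 and 8 outside it on the other side; the cause was not tested. In NK cells 4 of the 64 also crossed 1. Of 36 summed levels by gate under the alternatives, 24 lay outside the counting interval of the reported level, and the ranges were 2574 to 6097 CPM in resistant monocytes (reported 5081), 171 to 560 CPM in resistant T cells, 175 to 493 CPM in sensitive T cells and 62.2 to 108 CPM in resistant fibroblasts (reported 109). Leaving out cells that reached a second gate gave 1.05 in dendritic cells (from 0.957), 0.835 in macrophages, 1.03 in monocytes, 1.73 in cancer cells, 2.81 in fibroblasts, 1.02 in T cells (from 0.888) and 7.19 for whole-tumor cancer cells, resistant over control. Without cell filter and doublet removal the ratio was 0.991 in macrophages, 1.12 in fibroblasts, 1.13 in T cells and 1.91 in neutrophils (from 0.692), and without doublet removal alone 0.932 in macrophages, 1.03 in monocytes, 1.11 in fibroblasts, 0.983 in T cells and 1.23 in neutrophils. With 1 more marker it was 0.863 in macrophages and 2.23 in monocytes. The mean over cells gave 0.932 in macrophages, 1.61 in cancer cells, 0.824 in fibroblasts and 0.636 in T cells. Scaling by the median gene gave 0.929 in dendritic cells, 1.59 in cancer cells and 0.807 in T cells. Without Cd74 it was 0.988 in dendritic cells, 0.924 in macrophages and 0.795 in T cells. Without the cell with most class II UMIs it was 0.915 in monocytes and 1.85 in fibroblasts. Among the alternatives chosen after seeing the data, leaving out cells with antigen-presenting cell markers gave 1.63 in cancer cells, 3.40 in fibroblasts and 1.02 in T cells, and leaving out fibroblasts with a Ptprc UMI gave 2.65.

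The share of class II positive cells in the sensitive and resistant libraries was 88.0% and 83.7% of cancer cells and 1.66% and 3.20% of T cells without thinning. Asking for at least 2 of 4 genes gave 70.0% and 55.5% of cancer cells and 0.942% and 2.16% of T cells. Without cells of a second gate 0.214% and 0.508% of T cells were positive, and without those with antigen-presenting cell markers 0.120% and 0.325%.

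The limits are these. Each group is 1 library, so no ratio can be held against the spread between animals. The T cell libraries had been depleted of class II+ cells, so shares of cells say nothing of the tumors, and which cells the depletion left may differ between libraries. Dendritic cell subsets rest on 3 to 30 cells, Ciita in cancer cells on 42 and 39 UMIs, and the fibroblast ratio on few cells.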
